A study of Mus musculus with 2 samples.

Results

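The genes described here encode the subunits, caps and assembly factors of the proteasome. They were taken by name: every mRNA gene whose symbol begins with Psma, Psmb, Psmc, Psmd, Psme, Psmf or Psmg followed by a digit, which gave 50 of the 46095 genes in the table. One of the names, Psmc3ip, belongs to a recombination cofactor gene and not to a proteasome subunit; it was kept in the counts because the name rule takes it. RNA was sequenced from 2 libraries of mouse acute myeloid leukaemia cells, 1 per group. The first was labelled P2x7-KO, with the title P2XT-KD, and the second wild type, with the title P2XT-Scr. Both came from C57BL/6 mice aged 8 weeks, and in both the leukaemia-initiating cells had been sorted from bone marrow as Mac1+ c-Kit+ cells. The KD and Scr of the titles are not spelled out, and they differ from the KO and wild type of the genotype labels. The labels do not say how the leukaemia was started or whether several mice were pooled, and they leave unclear how P2x7 was disrupted. By its labels, the study addressed what loss of P2x7, an ATP-gated cation channel, does to gene expression in these cells.

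The proteasome is the protease that degrades ubiquitin-tagged proteins. Its 20S core is a barrel of stacked rings: alpha subunits form the gated outer rings, and beta subunits form the inner rings, where 3 of them (encoded by Psmb5, Psmb6 and Psmb7) cut peptides. The 19S regulatory particle binds ubiquitin chains, removes them and unfolds substrates with a ring of ATPases. In blood cells and under interferon-gamma, the immunosubunits encoded by Psmb8, Psmb9 and Psmb10 replace the constitutive cutting subunits, and PA28 (Psme1 and Psme2) can cap the core. Immunoproteasomes are known for shaping the peptides shown on MHC class I, and proteasome inhibitors are drugs for some blood cancers.

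With 1 library per group there is no replicate check and no test between genotypes. The P2x7-KO-labelled library held 12435916 counts over 18983 detected genes, and the wild-type-labelled library held 12456212 counts over 18440 detected genes. Levels are given as counts per 1000000 (CPM) with TMM scaling, and ratios are P2x7-KO over wild type with a 95% interval for counting error only. P2rx7, the targeted gene, went against its label: it had 543 counts in the P2x7-KO-labelled library and 229 counts in the wild-type-labelled library, a log2 ratio of 1.18 (0.95 to 1.41). Directions below are therefore directions between labelled libraries. Of the sort genes, Kit (c-Kit) had 67.6 CPM in the P2x7-KO-labelled library and 46.0 CPM in the wild-type-labelled one, and Itgam (Mac1) had 542.6 CPM in the P2x7-KO-labelled library and 186.9 CPM in the wild-type-labelled one, so both defining markers were present in both. Markers of other cell types differed too: the 10 monocyte or macrophage markers summed to 4311 CPM in the P2x7-KO-labelled library and 1451 CPM in the wild-type-labelled one. Of the 10, 8 were at least 2-fold higher, where 10.8% of all genes with at least 20 counts were. Ly86 went the other way, at a log2 ratio of -0.65 (-0.74 to -0.57). The 9 neutrophil markers summed to 2866 CPM in the P2x7-KO-labelled library and 3391 CPM in the wild-type-labelled one. Members lay past 1.5-fold both ways, 2 higher and 3 lower, where 21.1% and 18.9% of all genes with at least 20 counts were. The 6 dendritic markers summed to 399 CPM in the P2x7-KO-labelled library and 377 CPM in the wild-type-labelled one, with H2-Aa at 0 in both. Flt3 held most of that sum, at 373.8 CPM in the P2x7-KO-labelled library and 368.1 CPM in the other. Of the 3 dendritic markers with at least 20 counts, Cd74 and Siglech were past 2-fold higher and 0 lower, Siglech on only 25 and 3 counts. The 7 B lymphoid markers summed to 94.9 CPM in the P2x7-KO-labelled library and 131 CPM in the wild-type-labelled one, with Ms4a1 and Pax5 at 0 in the wild-type-labelled library. Past 2-fold, Igkc was higher (9.58 CPM in the P2x7-KO-labelled library and 1.64 CPM in the other) and Ighm lower (31.0 and 73.3 CPM). For 7 T or NK markers the sum was 10.7 CPM in the P2x7-KO-labelled library and 26.0 CPM in the wild-type-labelled one, with Trac at 0 in both and Cd3e and Gzma at 0 in the wild-type-labelled library. Nkg7 held most of it (8.25 CPM in the P2x7-KO-labelled library and 25.2 CPM in the other), while Ccl5 was higher (1.49 and 0.58 CPM). For 5 erythroid markers the sum was 9.19 CPM in the P2x7-KO-labelled library and 1.23 CPM in the wild-type-labelled one. The part of these cells in the results was not tested, and in bulk RNA fewer cells of a type and less RNA per cell cannot be told apart.

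Nearly every proteasome gene was somewhat lower in the P2x7-KO-labelled library, and a few were much lower. Together the 50 genes held 56578 counts there, 0.455% of the library (exact 95% binomial interval 0.451 to 0.459), against 70952 counts, 0.570% (0.565 to 0.574), in the wild-type-labelled library. A gene was counted when it had at least 20 counts over both libraries, which 49 of the 50 did; the exception was Psmb11, the beta subunit of thymic cortical epithelium, with 0 counts in both, which limits it to 0.236 CPM in the P2x7-KO-labelled library and 0.247 CPM in the wild-type-labelled one. Of the 49, 48 lay below a ratio of 1, with a median log2 ratio of -0.41 against 0.005 over all 13363 genes counted. Scaled by total counts, Psmd1 too lay above 1, at a log2 ratio of 0.027.

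Few of these differences were large. A gene was called past a fold when its ratio reached it and its counting interval excluded 1. At 2-fold, 4 members were lower (Psma8, Psmb8, Psmb9 and Psmg3) and 0 higher, where 8.95% of all counted genes were lower and 10.8% higher. The share of members lower by 2-fold was thus near the background. At 1.5-fold, 13 members were lower and 1 was higher (Psme4), where the background was 18.9% lower and 21.1% higher. By the interval alone, 43 were lower and 1 higher, against a background of 34.7% and 35.6%. A counting interval narrows as counts rise, and the background takes every gene with at least 20 counts. Depth was not matched, so these interval shares are not strictly comparable. Scaled by total counts or by DESeq2, Psmg3 fell short of 2-fold and Psmb6, Psmb7 and Psmc5 fell short of 1.5-fold, which left 3 and 10 lower. Most members thus differed by a small amount and in one direction.

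**Figure D1:**
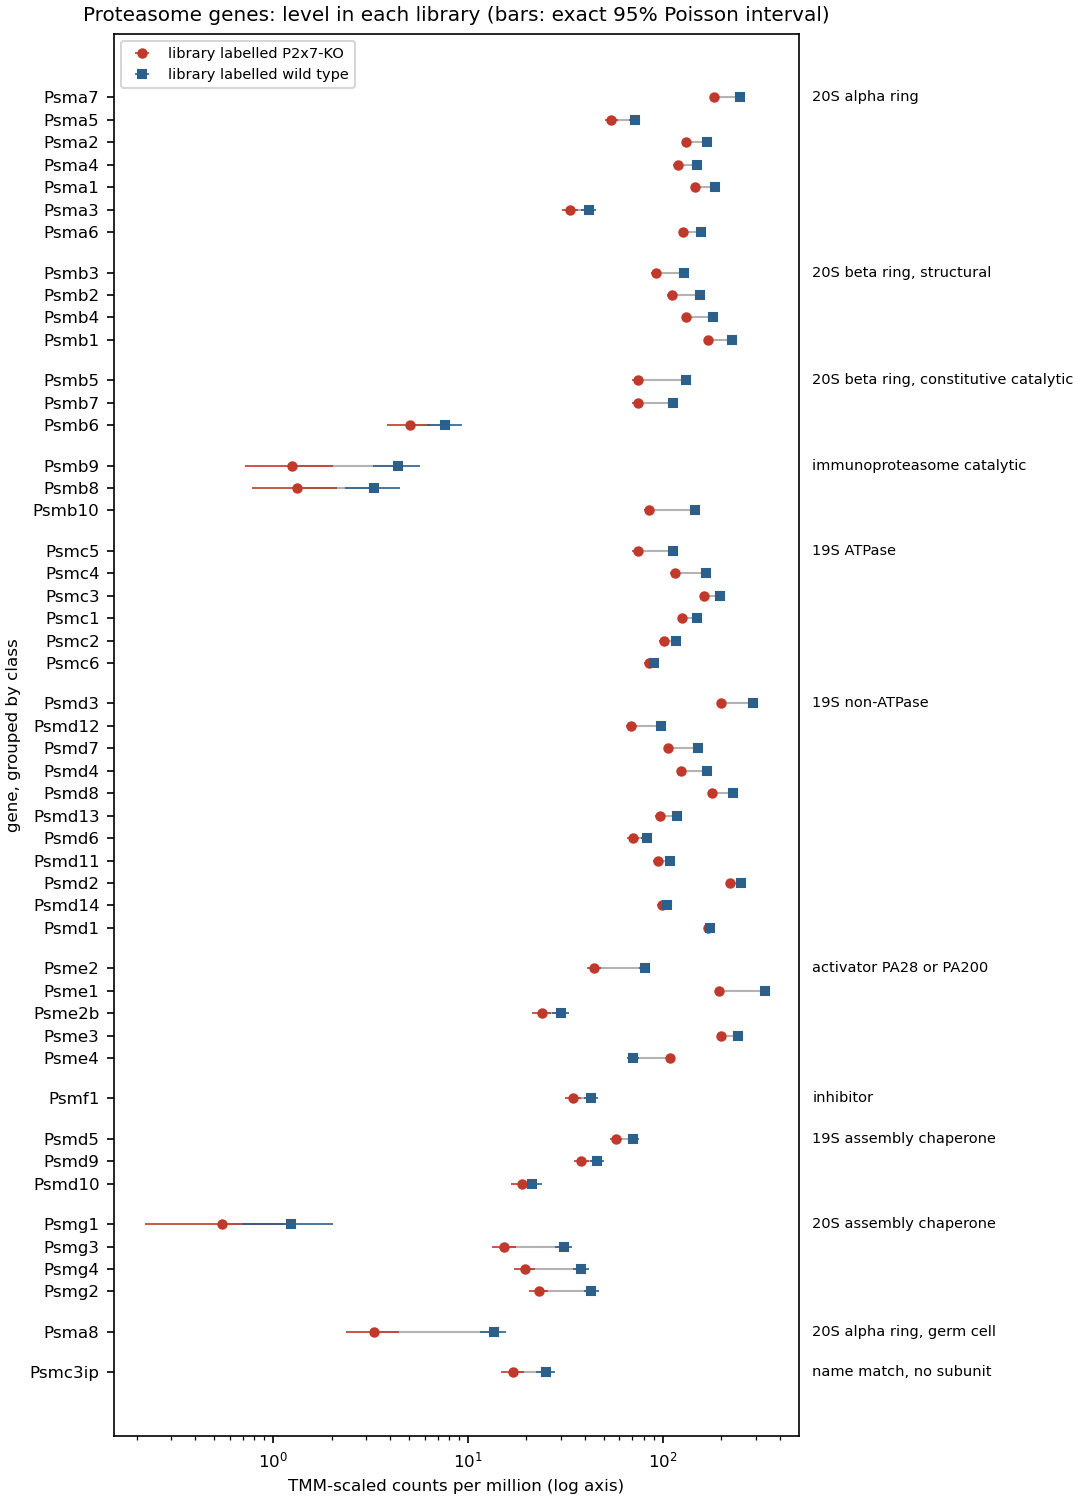
Level of each counted proteasome gene in TMM-scaled CPM (log axis), grouped by role, with the P2x7-KO-labelled library in red circles, the wild-type-labelled library in blue squares and exact 95% Poisson intervals as bars. The red point lies left of the blue one for 48 of 49 genes, and Psme4 is the exception; Psmb11, at 0 in both, is not drawn.

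The genes of the alpha ring were all lower by much the same amount. Psma7, which had the lowest ratio of its 7 somatic genes, had 2349 counts (184 CPM) in the P2x7-KO-labelled library and 3025 counts (248.7 CPM) in the wild-type-labelled library, a log2 ratio of -0.43 (-0.51 to -0.35). Psma6, with the highest ratio, had 1618 counts (127 CPM) in the P2x7-KO-labelled library and 1912 counts (157 CPM) in the wild-type-labelled one, a log2 ratio of -0.31 (-0.40 to -0.21). Psma1, Psma2, Psma3, Psma4 and Psma5 lay between them. All 7 intervals lay below 1 (5 of the 7 ratios turned above 1 once length alone was adjusted for), 0 genes passed 1.5-fold, and the ratios of the ring lay closer together than those of any other class of more than 4 genes.

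The 4 structural beta genes, which have no cutting site of their own in the mature core, lay close together as well. Psmb3 had 1171 counts (92.0 CPM) in the P2x7-KO-labelled library and 1566 counts (128.7 CPM) in the wild-type-labelled library, the lowest ratio of this group at a log2 value of -0.49 (-0.60 to -0.38). Psmb1 had 2173 counts (170.7 CPM) in the P2x7-KO-labelled library and 2754 counts (226 CPM) in the wild-type-labelled one, the highest ratio at -0.41 (-0.49 to -0.33). Psmb2 and Psmb4 lay between. None of the 4 passed 1.5-fold, and all 4 intervals lay below 1. Some core genes have close copies: 57.1% of the 50-base windows of Psmb5, 55.8% of those of Psmb3 and 55.4% of those of Psma5 also occur in other annotated genes, nearly all pseudogenes, and 28.1% of those of Psmb7 occur in Nek6 on the opposite strand. The counts of these genes are uncertain to that extent.

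The 3 constitutive cutting subunits were each lower by more than 1.5-fold before adjustment. With length and GC content taken out, none was past 1.5-fold, at log2 ratios of -0.06 for Psmb5, -0.25 for Psmb7 and 0.20 for Psmb6. Scaled by total counts or by DESeq2, Psmb6 and Psmb7 also fell short of 1.5-fold. Psmb5, whose product cuts after bulky hydrophobic residues and is the main site bound by bortezomib, had 947 counts (74.4 CPM) in the P2x7-KO-labelled library and 1608 counts (132 CPM) in the wild-type-labelled library, a log2 ratio of -0.83 (-0.95 to -0.71). Psmb7, whose product has trypsin-like activity, had 951 counts (74.7 CPM) in the P2x7-KO-labelled library and 1383 counts (113.7 CPM) in the wild-type-labelled one, a log2 ratio of -0.61 (-0.73 to -0.49). Psmb6, whose product has caspase-like activity, had 64 counts (5.03 CPM) in the P2x7-KO-labelled library and 93 counts (7.65 CPM) in the wild-type-labelled one, a log2 ratio of -0.61 with a wide interval (-1.09 to -0.13). Psmb6 was also low for a core gene in both libraries. Per kilobase of coding sequence it had 7.04 CPM in the P2x7-KO-labelled library and 10.7 CPM in the wild-type-labelled library, while the other 13 core genes ran between 43.7 (Psma3) and 280.2 CPM (Psmb1) in the P2x7-KO-labelled library and between 54.7 (Psma3) and 372 CPM (Psmb1) in the wild-type-labelled library. Only 2.67% of the 50-base windows of its transcript also occur in another annotated gene, a pseudogene of Psmb6, and the labels do not say how such reads were counted.

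The 3 immunosubunits had the lowest median of the classes with more than 1 gene, a log2 ratio of -1.30 against -0.42 for the 14 constitutive core genes. Psmb9, which takes the place of Psmb6, had 16 counts (1.26 CPM, 0.72 to 2.04) in the P2x7-KO-labelled library and 53 counts (4.36 CPM, 3.26 to 5.70) in the wild-type-labelled library. It was thus 3.47-fold lower, with an interval of 1.95 to 6.5. Psmb8, which takes the place of Psmb5, had 17 counts (1.34 CPM, 0.78 to 2.14) in the P2x7-KO-labelled library and 40 counts (3.29 CPM, 2.35 to 4.48) in the wild-type-labelled library, 2.46-fold lower (1.37 to 4.63). For both genes the CPM intervals of the libraries did not overlap, but the counts behind them are small. Their levels were low beside Psmb10, as Psmb6 was beside the rest of the core and as H2-D1, a class I heavy chain gene, was listed at 0 in both libraries. The labels do not say how reads with several matches were counted. Of the 50-base windows, 5.83% of those of Psmb8, 12.5% of those of Psmb9 and 2.67% of those of Psmb6 also occur in other genes. What lies behind these low counts was not tested, and the ratios and shares made from them are uncertain. Psmb10, which takes the place of Psmb7, was far more abundant, with 1083 counts (85.0 CPM) in the P2x7-KO-labelled library and 1774 counts (145.8 CPM) in the wild-type-labelled library, 1.71-fold lower (1.59 to 1.85). The 3 differences therefore rest on very different depths.

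**Figure D2:**
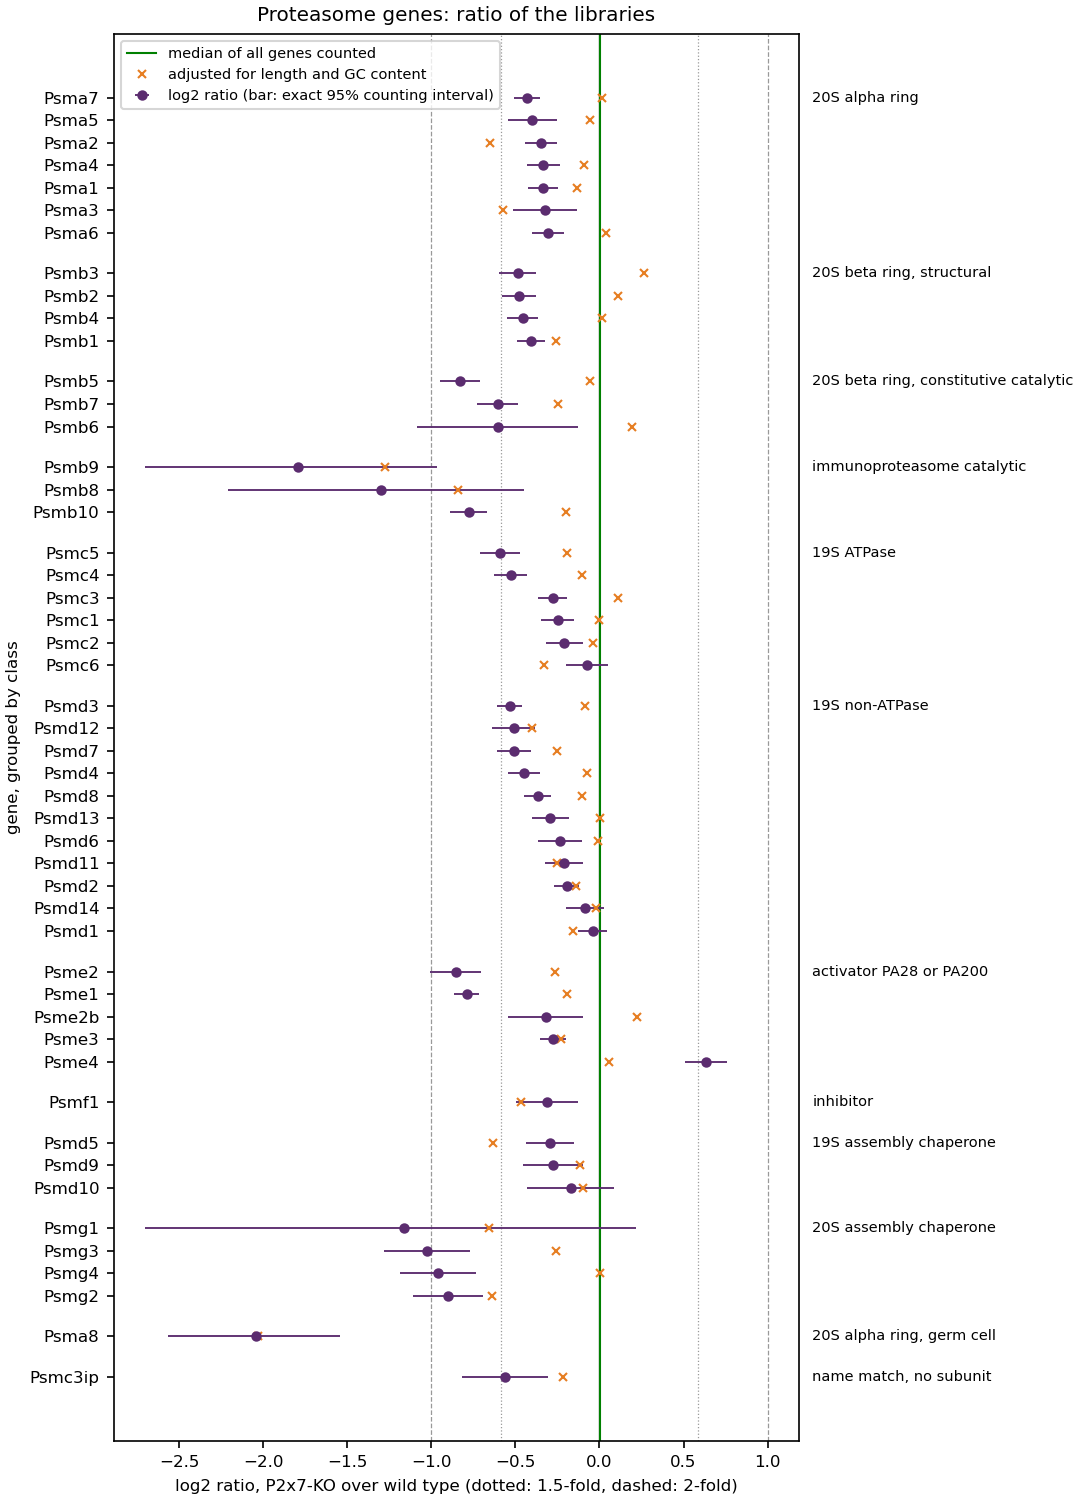
Log2 ratio of P2x7-KO over wild type for each counted proteasome gene (purple, bars are exact 95% counting intervals) and the same ratio with transcript length and GC content taken out (orange crosses), grouped by role; the green line is the median of all genes counted. The alpha ring lies in a narrow band, Psmb9 and Psma8 lie past 2-fold with and without the adjustment, and Psme4 lies right of 0.

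The immunosubunit's share of its pair was measured within each library; differences between the pairs were not tested, and the intervals of their odds ratios overlap. Such a share does not depend on the scaling between libraries. Psmb9 made up 20% of the counts of Psmb9 and Psmb6 (exact 95% binomial interval 11.9 to 30.4) in the P2x7-KO-labelled library and 36.3% (28.5 to 44.7) in the wild-type-labelled library. The odds ratio was 0.440 (0.215 to 0.865). Psmb10 made up 53.2% of the counts of Psmb10 and Psmb7 (51.0 to 55.4) in the P2x7-KO-labelled library and 56.2% (54.4 to 57.9) in the wild-type-labelled library. That odds ratio, 0.888 (0.793 to 0.995), only just excluded 1, and its log2 value of -0.17 became 0.050 with length and GC content taken out. Psmb8 made up 1.76% of the counts of Psmb8 and Psmb5 (1.03 to 2.81) in the P2x7-KO-labelled library and 2.43% (1.74 to 3.29) in the wild-type-labelled library, and the interval of its odds ratio, 0.381 to 1.31, included 1. Set against the summed counts of the 7 somatic alpha genes, each immunosubunit was lower before adjustment, with odds ratios of 0.370 (0.197 to 0.658) for Psmb9, 0.521 (0.277 to 0.940) for Psmb8 and 0.748 (0.690 to 0.811) for Psmb10. With length and GC content taken out, the log2 values were -1.06 for Psmb9 and -0.63 for Psmb8, while that of Psmb10 turned to 0.02, against -0.42 before.

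**Figure D3:**
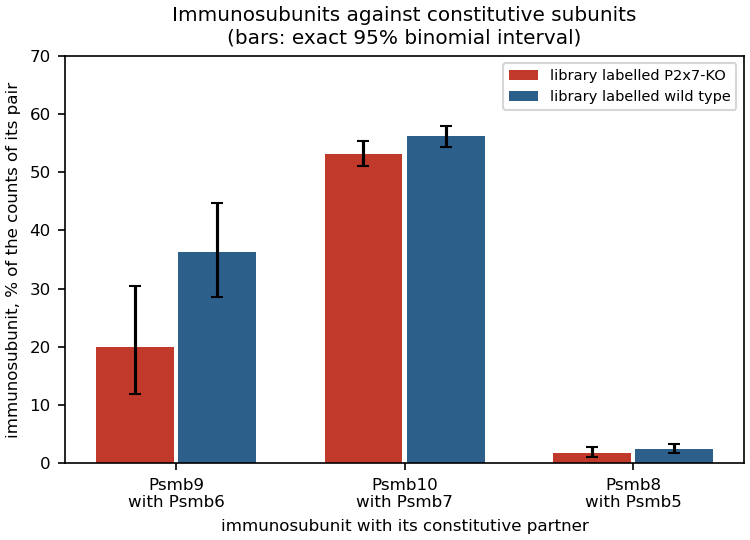
Share of each immunosubunit in the summed counts of itself and its constitutive partner, in percent, in the P2x7-KO-labelled library (red, left) and the wild-type-labelled library (blue, right), with exact 95% binomial intervals. The Psmb9 share is 20% in the P2x7-KO-labelled library and 36.3% in the wild-type-labelled library, and the intervals of the libraries overlap in all 3 pairs.

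Psmb9 and Psmb8 lie in the MHC class II region of chromosome 17, interleaved with the genes of the peptide transporter TAP. In mm10 (GENCODE M21), Psmb9 spans 34181987 to 34187764 on the minus strand, Tap1 34187553 to 34197225, Psmb8 34197721 to 34201454 and Tap2 34203527 to 34216321, the last 3 on the plus strand. The 4 genes lie within 34.3 kb. Tap1 had 27 counts in the P2x7-KO-labelled library and 48 counts in the wild-type-labelled library, a log2 ratio of -0.90 (-1.63 to -0.19). Tap2 had 31 counts in the P2x7-KO-labelled library and 57 counts in the wild-type-labelled one, a log2 ratio of -0.94 (-1.625 to -0.29). All 4 neighbours thus had fewer counts in the P2x7-KO-labelled library, on small counts. Of all 13363 counted genes, 6649 lay below a ratio of 1. Tap1 and Tap2 are named for their place beside the immunosubunits, after their values were seen. Psmb9 and Tap1 overlap at their starts on opposite strands, and 12.5% of the 50-base windows of Psmb9 also occur in Tap1. Of the Psmb8 windows, 5.83% occur in an antisense gene, so reads of these genes could have been split without strand information. Psmb10 lies apart from them on chromosome 8, between 105935735 and 105938444 on the minus strand, and shares 0% of its windows.

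The start regions of an immune and a constitutive cutting subunit are shown because these genes differ in how they are known to be switched on: Psmb9 by interferon signalling, Psmb5 also by the factors NRF1 and NRF2 (encoded by Nfe2l1 and Nfe2l2), which bind antioxidant response elements. Each is 300 bases from RefSeq (GRCm38.p6), 5′ to 3′ on the gene's strand, with 250 bases before the start and 50 bases after it. Both genes are on the minus strand, Psmb9 at chr17:34187281-34187580 and Psmb5 at chr14:54617946-54618245. Capitals mark a match on either strand to CCAAT (the CCAAT box) in Psmb9 and to TGACNNNGC (the core of the antioxidant response element) in Psmb5.
Psmb9: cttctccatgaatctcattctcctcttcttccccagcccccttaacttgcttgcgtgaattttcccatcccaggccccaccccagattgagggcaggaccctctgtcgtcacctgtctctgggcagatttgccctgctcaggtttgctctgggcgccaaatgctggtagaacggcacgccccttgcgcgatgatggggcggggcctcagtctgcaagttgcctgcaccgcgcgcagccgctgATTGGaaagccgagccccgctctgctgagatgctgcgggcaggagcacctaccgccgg
Psmb5: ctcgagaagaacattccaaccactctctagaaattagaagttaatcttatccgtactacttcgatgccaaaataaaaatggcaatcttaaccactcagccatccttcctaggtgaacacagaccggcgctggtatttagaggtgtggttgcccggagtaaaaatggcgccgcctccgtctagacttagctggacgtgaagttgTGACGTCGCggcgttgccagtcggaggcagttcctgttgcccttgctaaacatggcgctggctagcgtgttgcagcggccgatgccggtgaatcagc
The Psmb9 match starts 8 bases before the start site and the Psmb5 match 47 bases before it. Windows were found for 42 of the 50 members, with 45 windows in all, and 3 motifs were searched on both strands, no one of which contains another. TGACNNNGC was present for 14.3% of these genes against 14% of all 27025 genes with a window, CCAAT for 35.7% against 41.1%, and the core of the interferon-stimulated response element (GAAA, any 2 bases, GAAA) for 11.9%, 5 genes, against 3.99%. Of the 3 immunosubunits, 0 held TGACNNNGC, 0 the interferon-stimulated core and 1 held CCAAT in this window.

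Genes of the 19S particle were also lower, with a smaller median difference than the core before adjustment. With length alone taken out the order turned, to -0.14 for 19S and 0.06 for the core, and with GC content as well the medians were -0.10 and -0.06. Its 17 genes had a median log2 ratio of -0.28, all 17 lay below a ratio of 1, 14 intervals lay below 1, and 1 gene was past 1.5-fold. That gene was Psmc5, an ATPase of the ring that unfolds substrates, with 950 counts (74.6 CPM) in the P2x7-KO-labelled library and 1368 counts (112 CPM) in the wild-type-labelled library, a log2 ratio of -0.59 (-0.71 to -0.47). The ATPase at the other end, Psmc6, had 1089 counts (85.5 CPM) in the P2x7-KO-labelled library and 1095 counts (90.0 CPM) in the wild-type-labelled one, a log2 ratio of -0.07 whose interval of -0.20 to 0.05 included 1-fold. Among the 11 non-ATPase genes, Psmd3, a scaffold subunit of the lid, had the lowest ratio, with 2548 counts (200.1 CPM) in the P2x7-KO-labelled library and 3523 counts (289.6 CPM) in the wild-type-labelled library, a log2 value of -0.53 (-0.61 to -0.46). Psmd1, the large subunit of the base that docks ubiquitin receptors, had the highest, with 2172 counts (170.6 CPM) in the P2x7-KO-labelled library and 2135 counts (175.5 CPM) in the wild-type-labelled one, a log2 ratio of -0.04 (-0.13 to 0.05). Psmd14, the deubiquitinase of the lid, is named after its values were seen as the third gene whose interval included 1, with 1260 counts (98.9 CPM) in the P2x7-KO-labelled library and 1276 counts (104.9 CPM) in the wild-type-labelled library. The 14 core genes and the 17 particle genes overlapped in their ratios.

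The activator caps lay in opposite directions before transcript length was taken into account. Psme1 and Psme2 encode the alpha and beta chains of PA28, an interferon-inducible cap that opens the core without ATP. Psme1 had 2471 counts (194 CPM) in the P2x7-KO-labelled library and 4082 counts (336 CPM) in the wild-type-labelled library, a log2 ratio of -0.79 (-0.86 to -0.72). Psme2 had 569 counts (44.7 CPM) in the P2x7-KO-labelled library and 984 counts (80.9 CPM) in the wild-type-labelled one, a log2 ratio of -0.86 (-1.01 to -0.71). Both PA28 genes were thus lower by more than 1.5-fold. Psme3, which encodes the nuclear cap PA28 gamma, differed less, with 2548 counts (200.1 CPM) in the P2x7-KO-labelled library and 2952 counts (243 CPM) in the wild-type-labelled library, a log2 ratio of -0.28 (-0.36 to -0.20). Within libraries, the odds of a Psme1 count against a Psme3 count had a ratio of 0.701 (0.652 to 0.755) and those of Psme2 a ratio of 0.670 (0.595 to 0.753), though their log2 values of -0.51 and -0.58 became 0.04 and -0.03 with length and GC content taken out.

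Psme4, which encodes PA200, a large cap known from DNA repair and from histone degradation in germ cells, was the only counted member above a ratio of 1. It had 1391 counts (109 CPM, 103.6 to 115) in the P2x7-KO-labelled library and 857 counts (70.5 CPM, 65.8 to 75.3) in the wild-type-labelled library, and the intervals did not overlap. The ratio was 1.55-fold (1.42 to 1.69), a log2 value of 0.63 that became 0.06 (-0.07 to 0.18) with length and GC content taken out, an interval that includes 1-fold. At 6491 nt, its transcript is the longest of the members. Psme2b, a near copy of Psme2 on chromosome 11, is named as the sequence partner of Psme2: it had 306 counts (24.0 CPM) in the P2x7-KO-labelled library and 365 counts (30.0 CPM) in the wild-type-labelled one. Of its 50-base windows 69.3% occur in other genes, almost all in Psme2, so the split of reads between Psme2 and Psme2b is uncertain.

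The start regions of Psme1 and Psme4 are shown because Psme1 had the most counts of the caps in the wild-type-labelled library and Psme4 alone was higher in the other. Both are on the plus strand, Psme1 at chr14:55578244-55578543 and Psme4 at chr11:30771525-30771824 (RefSeq, GRCm38.p6). Capitals mark the match to the interferon-stimulated core in Psme1 and to TGACNNNGC in Psme4, both found on the opposite strand.
Psme1: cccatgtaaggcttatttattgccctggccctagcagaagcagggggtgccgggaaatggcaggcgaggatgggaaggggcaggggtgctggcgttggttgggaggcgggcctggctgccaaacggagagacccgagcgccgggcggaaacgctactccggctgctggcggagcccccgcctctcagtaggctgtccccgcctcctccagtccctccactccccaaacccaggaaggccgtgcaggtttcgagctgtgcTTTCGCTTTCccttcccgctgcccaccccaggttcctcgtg
Psme4: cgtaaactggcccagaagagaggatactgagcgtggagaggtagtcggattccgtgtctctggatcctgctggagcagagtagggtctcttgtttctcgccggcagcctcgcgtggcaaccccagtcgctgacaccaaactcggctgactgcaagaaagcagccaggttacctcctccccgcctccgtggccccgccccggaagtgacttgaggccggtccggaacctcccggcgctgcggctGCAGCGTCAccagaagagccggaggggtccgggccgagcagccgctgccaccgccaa
The Psme1 match begins at base 10, counting the start site as base 1, and the Psme4 match 7 bases before the start site. Such matches describe letters in a window and show no binding.

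The inhibitor and the assembly factors completed the set. Psmf1, which encodes the inhibitor PI31, had 440 counts (34.6 CPM) in the P2x7-KO-labelled library and 522 counts (42.9 CPM) in the wild-type-labelled library, a log2 ratio of -0.31 (-0.50 to -0.13). The 4 chaperones that help build the 20S core, Psmg1 to Psmg4, had a median log2 ratio of -0.99, lower than that of the core itself. With length and GC content taken out, this median was -0.449. Psmg1 and Psmg2 were then at -0.66 and -0.64, while Psmg3 at -0.26 and Psmg4 at 0.002 were no longer called. Psmg2 had 294 counts (23.1 CPM) in the P2x7-KO-labelled library and 524 counts (43.1 CPM) in the wild-type-labelled library, the highest ratio of the 4 at a log2 value of -0.90 (-1.11 to -0.69). Psmg1, the partner of Psmg2 in a dimer, had only 7 counts (0.55 CPM) in the P2x7-KO-labelled library and 15 counts (1.23 CPM) in the wild-type-labelled one, and its log2 ratio of -1.17, the lowest of the 4, had an interval of -2.70 to 0.22 that included 1-fold. Psmg3 and Psmg4, which form a second dimer, had 195 counts (15.3 CPM) and 250 counts (19.6 CPM) in the P2x7-KO-labelled library and 379 counts (31.2 CPM) and 465 counts (38.2 CPM) in the wild-type-labelled library; as members between the ends they stand here to complete the class. The 3 chaperones of the 19S base differed less. Psmd5 had 736 counts (57.8 CPM) in the P2x7-KO-labelled library and 861 counts (70.8 CPM) in the wild-type-labelled library, a log2 ratio of -0.29 (-0.44 to -0.15). Psmd10, also known as gankyrin, had 242 counts (19 CPM) in the P2x7-KO-labelled library and 260 counts (21.4 CPM) in the wild-type-labelled one, with an interval of -0.43 to 0.09 around a log2 ratio of -0.17.

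Psma8 had the lowest ratio of all counted members. It encodes an alpha subunit used in place of the Psma7 product in testis, where it serves meiosis. It had 42 counts (3.30 CPM, 2.38 to 4.46) in the P2x7-KO-labelled library and 165 counts (13.6 CPM, 11.6 to 15.8) in the wild-type-labelled library, and the intervals did not overlap. The gene was thus 4.11-fold lower (2.92 to 5.92), and against Psma7 within each library its odds ratio was 0.328 (0.227 to 0.465). None of its 50-base windows occur in another annotated gene. Taking out length and GC content left its log2 ratio at -2.03, against -2.04 before. Psmc3ip, the name match that is not a subunit, had 217 counts (17.0 CPM) in the P2x7-KO-labelled library and 306 counts (25.2 CPM) in the wild-type-labelled library, a log2 ratio of -0.56 (-0.82 to -0.31).

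The small common difference went with transcript length and with GC content, as ratios did across all mRNA genes. Over 11175 mRNA genes, shorter transcripts had lower ratios (Spearman's rho 0.469, Pearson's r 0.405 between log2 length and log2 ratio). The median log2 ratio was -0.74 in the shortest of 20 length bins, with a median length of 736 nt, and 0.71 in the longest, at 9749 nt. Proteasome transcripts are short, with a median of 1440 nt against 3072 nt for all counted mRNA genes, and among the 49 members the relation had the same sign (rho 0.571, r 0.467; rho 0.543 over 48 without Psme4). For GC content, rho was -0.380 over all mRNA genes and -0.551 among the members. For log2 mean count, rho was -0.027 over all mRNA genes and 0.325 among the members, with r of -0.013 and 0.615. These are correlations across genes of the same pair of libraries, and genes are not independent replicates. Adjusted for both length and GC content by a smooth trend over all mRNA genes, the median of the members was -0.14, against 0.06 over all genes with a length. The relation to length among the 49 members then changed sign (rho -0.354, r -0.218). Among the 31 core and 19S genes r went from 0.571 to -0.666, so longer transcripts had lower adjusted ratios there. The 14 constitutive core genes had a median of -0.06 with both adjusted for, and of 0.06 when adjusted for length alone, so their direction depended on the adjustment. Of these 14, 9 turned to a ratio above 1 with length alone taken out and 6 with GC content taken out as well, Psma6, Psma7, Psmb2, Psmb3, Psmb4 and Psmb6 both times. Adjusted for coding length instead, an alternative chosen after seeing the data, 0 of the 14 changed sign. That trend explained 7.75% of the deviance. With length and GC content taken out, the 17 genes of the 19S particle had a median of -0.10, and 15 of the 17 stayed below 0.

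Set beside mRNA genes of like length, nearly all genes of the constitutive machine lay between the quartiles. The immune and testis subunits lay below them, as did some other members. All 14 constitutive core genes and 16 of the 17 genes of the 19S particle lay between the quartiles of their length bin, the exception being Psmd3. By construction about 50% of all genes lie there. All 3 immunosubunits and Psma8 lay below the lower quartile, and so did Psmd3, Psmd5, Psme2, Psmf1, Psmg1 and Psmg2. That made 10 of the 49 members, where by construction about 25% of all genes lie. With both length and GC content adjusted for, 5 members were past 1.5-fold lower and 0 higher, where 10.7% of all genes with a length were lower and 17.3% higher. These were Psma2, Psma8, Psmb9, Psmd5 and Psmg2. Psma2 and Psmd5 were called only after adjustment, with log2 ratios of -0.35 and -0.29 before it and -0.65 and -0.63 after. The trend taken out for them rests on annotated transcripts of 2911 nt and 4397 nt, of which 702 nt and 1512 nt are coding. Past 2-fold, Psma8 and Psmb9 alone were lower, against a background of 4.49%, and 0 were higher, against 8.89%. By interval 25 were lower and 4 higher, where the background, not matched for depth, was 28.0% and 35.1%. The adjusted log2 ratio was -1.28 (-2.18 to -0.45) for Psmb9 and -0.84 (-1.75 to 0.009) for Psmb8, the second an interval that just included 0. For Psmb10 it was -0.20 (-0.31 to -0.09), for Psmb5 -0.06 (-0.18 to 0.06) and for Psmb7 -0.25 (-0.37 to -0.13), while Psmb6 turned to 0.20 (-0.29 to 0.67). The adjusted values of the PA28 genes were -0.19 (-0.27 to -0.12) for Psme1 and -0.26 (-0.41 to -0.11) for Psme2. What stands behind the relation to length was not tested.

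**Figure D4:**
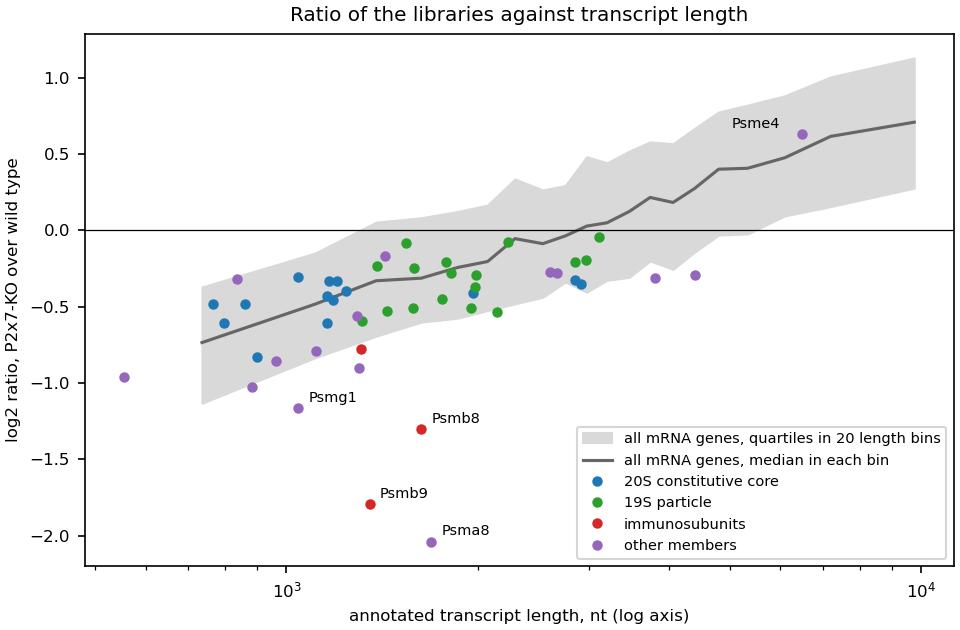
Log2 ratio of P2x7-KO over wild type for each counted proteasome gene against its annotated transcript length in nucleotides (log axis), with the median and quartiles of all mRNA genes in 20 length bins in grey. Core (blue) and 19S (green) genes lie within the grey band apart from Psmd3, while Psmb8, Psmb9 and Psma8 are among the members below it.

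Lists for other multi-subunit machines also had medians below 0. The 81 counted genes of cytosolic ribosomal proteins had a median log2 ratio of -1.07, with 75 past 1.5-fold lower, and the 77 genes of mitochondrial ribosomal proteins had -0.68, with 44 past 1.5-fold lower. Adjusted for length and GC content these medians were -0.48 and -0.26, further from 0 than the -0.06 of the constitutive proteasome core. In the next 2 lists the calls lay near the background of 18.9% lower. The 8 genes of the CCT chaperonin, which folds actin and tubulin, had a median of -0.39 with 1 past 1.5-fold lower: Cct3, at 202 CPM in the P2x7-KO-labelled library and 334 CPM in the wild-type-labelled library. The 9 counted genes of the COP9 signalosome, a relative of the 19S lid, had a median of -0.40 with 2 past 1.5-fold lower, Cops6 (67.1 CPM in the P2x7-KO-labelled library and 116.6 CPM in the wild-type-labelled one) and Cops4 (75.2 CPM in the P2x7-KO-labelled library and 113.8 CPM in the wild-type-labelled one). With length and GC content taken out, the medians were -0.315 for CCT and -0.290 for COP9, also further from 0 than that of the core. By adjusted interval, 8 of 8 CCT genes and 7 of 9 COP9 genes were lower, against a background of 28.0%. That background was not matched for depth, on which an interval call depends.

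**Figure D5:**
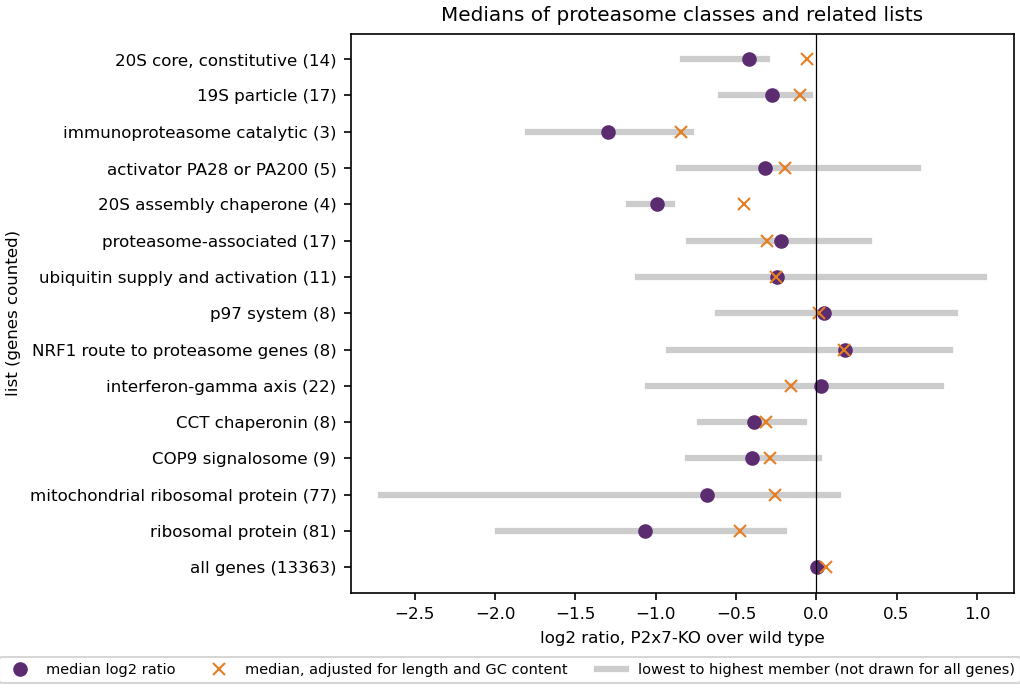
Median log2 ratio of P2x7-KO over wild type for proteasome classes and related gene lists (purple), the same with transcript length and GC content taken out (orange crosses) and the span between the lowest and highest member (grey bars); the number of genes counted is in parentheses. The immunosubunits have the lowest median drawn, -1.30, and the ribosomal proteins come next at -1.07.

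Genes that work with the proteasome lay on both sides of a ratio of 1, more of them below it. Of 17 counted genes for proteasome-associated proteins, 5 were past 1.5-fold lower and 0 higher, against a background of 18.9% and 21.1%. Those with the clearest intervals were Adrm1, a ubiquitin receptor of the 19S base (53.6 CPM in the P2x7-KO-labelled library and 92.6 CPM in the wild-type-labelled library), Shfm1, which encodes the small 19S subunit DSS1 (199 CPM in the P2x7-KO-labelled library and 328 CPM in the wild-type-labelled one), and Zfand5, a proteasome activator (98.3 CPM in the P2x7-KO-labelled library and 150.3 CPM in the wild-type-labelled one). With length and GC content taken out, the log2 ratio of Adrm1 became -0.13, against -0.79 before, and those of Shfm1 and Zfand5 were -0.80 and -1.36. By that adjustment, 7 of the 17 were past 1.5-fold lower and 0 higher, where 10.7% of all genes with a length were lower and 17.3% higher. Of 11 genes for ubiquitin supply and activation, 4 were past 1.5-fold lower and 1 higher before adjustment, against a background of 18.9% and 21.1%. After it, 3 were lower and 0 higher. Rps27a, which encodes ubiquitin fused to a ribosomal protein, had 37.3 CPM in the P2x7-KO-labelled library and 76.4 CPM in the wild-type-labelled library, a log2 ratio of -1.03 (-1.20 to -0.87) that became -0.46 with length and GC content taken out. Uba6, an alternative ubiquitin-activating enzyme, was higher, at 18.5 CPM in the P2x7-KO-labelled library and 8.96 CPM in the wild-type-labelled one, a log2 ratio of 1.04 (0.71 to 1.38) that became 0.28 with length and GC content taken out, under 1.5-fold.

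The regulators of proteasome genes did not share one direction. Of 8 counted genes of the p97 system, which extracts substrates for the proteasome, 2 were past 1.5-fold higher and 1 lower: Ubxn7 (83.5 CPM in the P2x7-KO-labelled library and 46.0 CPM in the wild-type-labelled library), Ufd1l (10.9 CPM in the P2x7-KO-labelled library and 7.23 CPM in the wild-type-labelled one) and, lower, Faf1 (66.0 CPM in the P2x7-KO-labelled library and 100.8 CPM in the wild-type-labelled one), against a background of 21.1% and 18.9%. The log2 ratio of Ubxn7, 0.86, became -0.009 with length and GC content taken out, which ended its call. Of 8 genes on the route by which NRF1 raises proteasome genes, 2 were past 1.5-fold higher and 2 lower, counts near the background of 21.1% and 18.9%. With length and GC content taken out, 1 was higher and 0 lower, where 17.3% of all genes with a length were higher and 10.7% lower. The log2 ratio of Ddi2 became 0.24, against 0.83 before. Ddi2, the protease that activates NRF1, had 89.8 CPM in the P2x7-KO-labelled library and 50.4 CPM in the wild-type-labelled library, and Ngly1, which removes its sugars, had 35.1 CPM in the P2x7-KO-labelled library and 19.8 CPM in the wild-type-labelled one. The partner genes Mafk (48.5 CPM in the P2x7-KO-labelled library and 77.6 CPM in the wild-type-labelled one) and Maff (3.61 CPM in the P2x7-KO-labelled library and 6.82 CPM in the wild-type-labelled one) were the lower ones. Nfe2l1 itself, which encodes NRF1 and is named here after its values were seen, had 1465 counts in the P2x7-KO-labelled library and 1451 counts in the wild-type-labelled library, with an interval of -0.16 to 0.05 around a log2 ratio of -0.05.

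The interferon-gamma axis, which is known to drive the immunosubunits, PA28 and MHC class I, was split. Of its 22 counted genes, 8 were past 1.5-fold lower and 2 higher, against a background of 18.9% and 21.1%, with a median log2 ratio of 0.03. With length and GC content taken out, 4 were lower and 0 higher, where 10.7% of all genes with a length were lower and 17.3% higher. B2m, the light chain of MHC class I, had 10659 counts (837 CPM) in the P2x7-KO-labelled library and 19191 counts (1578 CPM) in the wild-type-labelled library, a log2 ratio of -0.91 (-0.95 to -0.88). H2-K1, a class I heavy chain, had 16.8 CPM in the P2x7-KO-labelled library and 34.7 CPM in the wild-type-labelled one, and Nlrc5, the transactivator of class I genes, had 18.6 CPM in the P2x7-KO-labelled library and 37.6 CPM in the wild-type-labelled one. With length and GC content taken out, the log2 ratios were -0.63 for B2m, -1.37 for Nlrc5 and -0.56 for H2-K1, the last under 1.5-fold. The kinase genes Jak1 and Jak2 were the higher ones. Jak1 had 210.8 CPM in the P2x7-KO-labelled library and 123 CPM in the wild-type-labelled library, and Jak2 had 85.7 CPM in the P2x7-KO-labelled library and 50.3 CPM in the wild-type-labelled one; their log2 ratios of 0.78 and 0.77 became 0.45 and 0.33 with length and GC content taken out. Irf1, a transcription factor on this route that is named after its values were seen, had 58.6 CPM in the P2x7-KO-labelled library and 81.9 CPM in the wild-type-labelled one. The lists were small and their members share pathways, so these counts describe the 2 libraries only.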

How the data were processed

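The authors deposited 1 table of raw read counts per gene for 46095 genes, with 1 column for each library. HISAT2 2.0.4 and the build mm10 are named per the submitters' processing notes; the counting program, annotation, strand setting and handling of multi-mapped reads are not stated there. Of the value columns, 0 were left out, and the table has no rows of unassigned reads.

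Counts were scaled by TMM (edgeR 4.0.16 in R 4.3.3) to 12734033.3 for P2x7-KO and 12164598.8 for wild type. The interval of a ratio is the exact Clopper-Pearson 95% interval of a gene's share of counts in the P2x7-KO-labelled library, and CPM intervals are exact Poisson intervals. Odds ratios carry exact conditional intervals. Intervals and limits, the limit being 3 counts, cover counting error only, since reads are not independent molecules. Calls at 2-fold and 1.5-fold required 20 or more counts in the libraries together. The interval calls were tested on simulated data.

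Length and GC content came from the longest protein-coding transcript of GENCODE M21, preferring the basic set, and were found for 94.8% of 13363 counted genes. A smooth trend over 11175 mRNA genes (mgcv 1.9.3), which explained 22% of the deviance with both terms and 16.5% with length alone, was subtracted for adjusted values. Shared sequence was measured as 50-base transcript windows that also occur in another gene: 23 members had none, and 16 had at least 10%.

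Members and lists were chosen with earlier results of these data known. Genes described in full are the immunosubunits and their partners, Psme1 to Psme4, and the highest and lowest ratio in each class; of related lists, up to 3 past 1.5-fold in each direction by the nearer bound of the interval. Some genes that the rule or the marker lists take are not reported here. Alternatives were other scalings (among them that of DESeq2 1.42.0), count minimums, thinning, and adjustment for length.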

Additional observations from a re-analysis of the deposited data

How the results depend on the processing

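No paired analysis was possible because each group holds 1 library, and for the same reason leaving out a replicate was not possible. Under 4 other scalings, thinning to equal totals and no minimum count, all 49 gene ratios stayed within their counting intervals; the sign changed for 1, Psmd1, by total count. Scaling by total count or by DESeq2 left Psmg3 just short of 2-fold, so 3 were lower past it, and put 10 members past 1.5-fold lower. A minimum of 100 counts left 2 lower past 2-fold, since Psmb8 and Psmb9 were not counted.

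Adjusted for length, 2 members were lower past 2-fold, 3 lower and 0 higher past 1.5-fold, and 25 lower and 9 higher by interval. The median was -0.145 over all members, 0.063 for the constitutive core, -0.140 for 19S, -0.423 for 20S chaperones and -0.200 for activators, Psmb6 turned to 0.094, and 16 members changed sign in all. Adjusted for length and GC content, 2 were lower past 2-fold, 5 lower and 0 higher past 1.5-fold, and 25 lower and 4 higher by interval. These medians were -0.137, -0.058, -0.104, -0.449 and -0.195 in the same order, Psmb6 turned to 0.195, Psmg4 to 0.002 and the Psmb10-to-Psmb7 log2 odds ratio to 0.050; 9 members changed sign. Against the alpha sum and unadjusted, the Psmb10 log2 odds ratio was -0.419, and 0.016 adjusted.

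Other alternatives were chosen after seeing the data. Adjusted for coding length, 8 were lower and 0 higher past 1.5-fold, with medians of -0.254 over all members, -0.224 for the core, -0.611 for 20S chaperones and -0.144 for activators. Without the 16 members sharing at least 10% of their windows, 2 were lower past 2-fold, 7 past 1.5-fold and 27 by interval, the 19S median was -0.368, and the activator median turned to 0.177, then over Psme3 and Psme4 alone. The cause of these shifts was not tested beyond how each alternative is built. Psmb8, Psmb9 and Psmg1, at under 60 counts in either library, are limited by depth.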
